A study of Mus musculus with 12 samples.

Results

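The interferon-induced genes are a list of 44 mouse genes that interferon switches on in many cell types, and they were followed here by RNA sequencing of sorted γδ T cells and CD4+ T cells. The members were taken by gene symbol from a table of 52459 genes, and all 44 were found and passed the filter on low counts, which left 16218 genes for testing. Over both diets, 3 of the 44 members passed edgeR's quasi-likelihood test between γδ and CD4+ T cells of wild-type mice. Of all genes tested, 5.96% passed. Ly6e and Ifi204 were higher and Gbp4 was lower in γδ T cells. No member passed that test for diet or for genotype. DESeq2 called 3 members for diet in γδ T cells (2105 genes in all). For genotype it called 1 member on the Ctl diet (122 genes) and 1 over both diets (76 genes).

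Interferons are secreted proteins that warn cells of infection. Type I interferons (α and β) and type II interferon (γ) bind separate receptors, whose kinases activate transcription factors in the cytoplasm. These factors bind DNA elements called the interferon-stimulated response element and the gamma-activated site. The genes below these elements encode sensors of foreign nucleic acid, proteins that block viral replication, and GTPases that attack the membranes of vacuoles in which microbes live. T cells both make interferon γ and respond to interferons.

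The study compared these genes in 6 groups of 2 libraries. γδ T cells, whose receptor has a γ and a δ chain, came from wild-type (WT) mice fed an MCD diet (methionine- and choline-deficient, a common way to cause fatty liver inflammation in mice) or a control (Ctl) diet. CD4+ T cells came from γδTCR-/- mice, which lack the γδ T cell receptor (knockout, KO), and from WT mice, each fed the MCD or the Ctl diet. The mice were 7 weeks old when the diets began and ate them for 6 weeks, and cells were sorted by flow cytometry into lysis buffer. The deleted gene, the organ and the gates of the sort are not given in the sources used here. Nothing in the labels says that the replicates came from separate mice, so p-values measure only the spread between these libraries. The label of γδ MCD replicate 2 (D2-D1_GDT) also names D1, which is the label of WT CD4+ MCD replicate 1, and whether those libraries share a mouse is not stated.

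Total counts per library ranged from 17035638 to 23203603, and mitochondrial genes took 53.8% to 56.8% of them in γδ libraries, 41.1% to 43.9% in KO MCD, 51.1% to 52.7% in KO Ctl and 40.8% to 43.9% in WT CD4+ libraries. This share was thus higher in γδ than in WT CD4+ T cells, lower in KO MCD than in KO Ctl and higher in KO Ctl than in WT Ctl, and its part in those differences was not tested. Trdc, the constant segment of the δ chain, had 7552 to 14401 counts in γδ libraries and 5 to 165 counts in CD4+ libraries of both genotypes. Since WT CD4+ T cells also had few Trdc counts, Trdc does not check the knockout. Markers of other cells were present beside the T cell genes. The summed level of 12 macrophage and Kupffer cell markers was 1648 to 2282 CPM (counts scaled to a common library size by TMM) in γδ MCD, 941 to 1797 CPM in γδ Ctl and 16 to 61.9 CPM in CD4+ libraries. Clec4f and Timd4, which mark resident Kupffer cells, were at 0 in both γδ MCD libraries. The 10 neutrophil and monocyte markers summed to 333 to 837 CPM in γδ and 39.5 to 193 CPM in CD4+ libraries, with Ly6g and Ngp at 0 in all 4 γδ libraries. The 9 dendritic cell markers summed to 122 to 377 CPM in γδ and 35.3 to 128 CPM in CD4+ libraries. The 10 sinusoidal endothelial markers summed to 128 to 147 CPM in γδ MCD, 698 to 1384 CPM in γδ Ctl and 76.5 to 171 CPM in CD4+ libraries. The B cell markers summed to 282 to 658 CPM in γδ and 221 to 656 CPM in CD4+ libraries, and the NK cell markers to 168 to 519 CPM in γδ and 11.8 to 120 CPM in CD4+ libraries. In bulk RNA, fewer cells of a type and less RNA per cell cannot be told apart. The libraries also differed in composition: scaling by library size in place of TMM moved the median log2 fold change of all genes by -0.61 between γδ and CD4+ T cells, and fold changes between these cell types are given relative to TMM.

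Promoter sequences (250 bases before to 50 after the start, RefSeq, GRCm38.p6) were found for 28 of the 44 members. The core of the interferon-stimulated response element, searched as GAAANNGAA on both strands with overlaps allowed, was in the promoters of 18 of these 28 members. Counted by promoter, as some members have several, it was in 19 of 36 (52.8%), against 8.56% of all 32851 promoters. The gamma-activated site, searched as TTCNNNGAA, which reads the same on both strands, was in those of 8 members. By promoter this was 8 of 36 (22.2%), against 8.3% of all promoters. The 9 windows shown place members with several cores beside members with 1 core, because members that carry these letters had widely differing levels. Isg15, Ifit3 and Ifit1, with 3 cores each in their promoters, had mean levels of 1.54, 3.37 and 17.9 FPKM over the 12 libraries. Of members with 1 core, Igtp and Ifi203 had 59.5 and 54.5 FPKM, but Rsad2 and Ifi44 had 1.04 and 0.99 FPKM. The windows lie at chr4:156200850-156200910 (- strand) for Isg15, chr19:34640779-34640839 (+) for Ifit1, chr19:34583401-34583461 (+) for Ifit3, chr5:120777694-120777754 (-) for Oas3, chr11:48871410-48871470 (-) for Irgm1, chr3:142559980-142560040 (+) for Gbp3, chr3:142530258-142530318 (+) for Gbp7, chr11:58199496-58199556 (+) for Igtp and chr1:173942493-173942553 (-) for Ifi203. Capitals mark GAAANNGAA or its reverse complement.
Isg15: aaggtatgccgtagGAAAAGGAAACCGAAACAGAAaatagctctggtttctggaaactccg
Ifit1: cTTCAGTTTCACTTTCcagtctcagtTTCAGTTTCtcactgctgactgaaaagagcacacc
Ifit3: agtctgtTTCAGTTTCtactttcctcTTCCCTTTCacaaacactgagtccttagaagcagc
Oas3: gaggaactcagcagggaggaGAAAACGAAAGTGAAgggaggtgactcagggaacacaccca
Irgm1: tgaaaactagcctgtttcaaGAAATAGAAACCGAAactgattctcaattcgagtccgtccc
Gbp3: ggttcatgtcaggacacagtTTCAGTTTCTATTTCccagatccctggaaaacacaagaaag
Gbp7: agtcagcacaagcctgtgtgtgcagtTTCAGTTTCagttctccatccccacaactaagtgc
Igtp: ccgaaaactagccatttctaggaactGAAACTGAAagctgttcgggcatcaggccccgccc
Ifi203: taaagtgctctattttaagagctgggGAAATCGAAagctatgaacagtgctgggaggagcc
A match describes these letters in this window and is not a measured binding site.

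Several members have near-copies, and reads may be split between them. The share of a gene's transcript 31-mers that also occur in another gene's transcripts was 74.3% for Gbp6, 68.8% for Oas1a, 61.8% for Ifit3, 34.6% for Ifi204, 31.1% for Gbp8, 21.9% for Ifi203, 15.9% for Igtp and 14.9% for Gbp4, against 0.422% for Ly6e. Exons of Dtx3l and Parp9, on opposite strands, overlap over 8% of Dtx3l and 9.4% of Parp9, and 4.31% of the exons of Dhx58 lie under the antisense gene Dhx58os. Whether the counting used strand is not given in the sources used here, so values of these genes carry that uncertainty.

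Ly6e was the most abundant member per transcript length in every group. Its mean over 12 libraries was 134 FPKM (scaled by depth and by transcript length), ahead of Igtp at 59.5, Ifi203 at 54.5, Gbp7 at 29.4 and Gbp4 at 24.6 FPKM. The least abundant members were Oasl1 at 0.63, Ifi44 at 0.99, Rsad2 at 1.04 and Isg15 at 1.54 FPKM. Each group had 15 to 17 members at 10 FPKM or more and 1 to 8 members under 1 FPKM. A floor of 3 counts corresponds to 0.13 to 0.248 CPM.

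**Figure D1:**
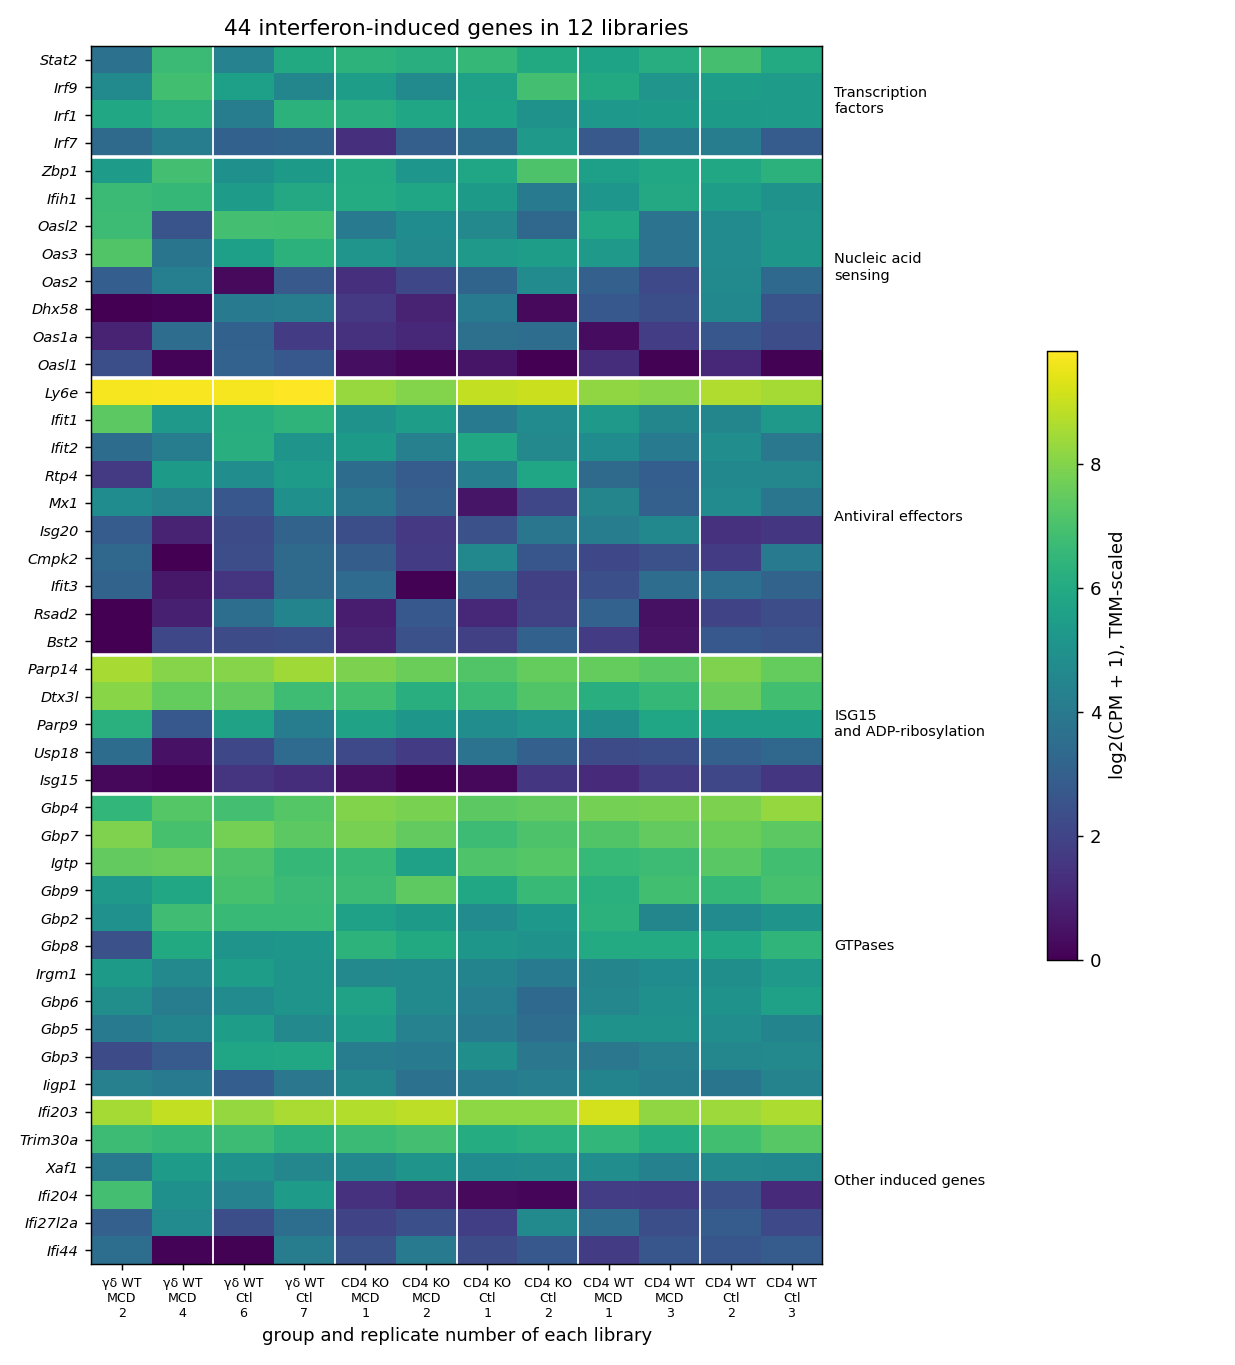
Level of each of the 44 genes, as log2(CPM + 1) with TMM scaling, in 12 libraries (columns, 2 a group, replicate numbers as in the labels) in rows grouped by role. Ly6e, Ifi203, Parp14 and Gbp4 are bright in all libraries, Ifi204 is bright in the 4 γδ libraries, and Dhx58 is dark in the 2 γδ MCD libraries. Dhx58 is also near the floor in KO Ctl replicate 2 (0.192 CPM).

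The transcription factors of the list are Irf1, Irf7, Irf9 and Stat2. Irf1, which interferon γ induces, averaged 17.2 ± 3.15 FPKM in γδ MCD, 11.5 ± 10.6 in γδ Ctl, 14.9 ± 2.71 in KO MCD, 9.76 ± 2.96 in KO Ctl, 9.27 ± 0.806 in WT MCD and 9.80 ± 0.530 FPKM in WT Ctl CD4+ T cells (SD, n = 2 each here and below). Stat2, the STAT that serves type I signalling, averaged 9.56 ± 10.6 FPKM in γδ MCD, 6.55 ± 4.86 in γδ Ctl, 12.3 ± 0.969 in KO MCD, 12.3 ± 3.38 in KO Ctl, 9.78 ± 2.18 in WT MCD and 14.8 ± 6.26 FPKM in WT Ctl. In γδ MCD, Stat2 differed widely between the replicates, with 12 and 103 CPM, and so did Irf9, its partner, with 24.9 and 116 CPM. Irf7, which amplifies type I interferon production, had 9.58 and 16.5 CPM in γδ MCD and 7.33 and 7.91 CPM in γδ Ctl, against 1.57 to 38.1 CPM in CD4+ libraries.

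The sensors of nucleic acid are Ifih1 (MDA5) and Dhx58 (LGP2), which bind double-stranded RNA, Zbp1, which binds nucleic acid in the Z form, and the oligoadenylate synthetase genes Oas1a, Oas2, Oas3, Oasl1 and Oasl2. Zbp1 averaged 22.3 ± 14.9 FPKM in γδ MCD, 9.32 ± 2.21 in γδ Ctl, 13.1 ± 5.46 in KO MCD, 24.9 ± 15.1 in KO Ctl, 14.1 ± 2.50 in WT MCD and 18.1 ± 4.24 FPKM in WT Ctl. Oasl2 had 106 and 4.84 CPM in γδ MCD and 118 and 116 CPM in γδ Ctl, against 8.94 to 56.4 CPM in CD4+ libraries. Oas3 split the γδ MCD replicates in the same way, with 142 and 13.0 CPM, and had 45.7 and 78.8 CPM in γδ Ctl. The summed Oas and Oasl level was 260 and 46.4 CPM in γδ MCD and 178 and 208 CPM in γδ Ctl. CD4+ libraries had 30.9 to 104 CPM, so the higher γδ MCD replicate lay above their range and the lower within it.

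The antiviral effectors are Ifit1, Ifit2 and Ifit3, which bind viral RNA, the exonuclease Isg20, the dynamin-like GTPase Mx1, Rsad2 (viperin) and its neighbour Cmpk2, which act on nucleotides, Bst2 (tetherin), Rtp4, and Ly6e, a surface protein anchored by lipid. Ly6e averaged 223 ± 2.31 FPKM in γδ MCD, 216 ± 18.9 in γδ Ctl, 71.8 ± 11.7 in KO MCD, 126 ± 8.90 in KO Ctl, 70.4 ± 4.70 in WT MCD and 95.5 ± 6.17 FPKM in WT Ctl. It made up 23.0% to 26.1% of the summed CPM of the 44 members in γδ libraries and 10.6% to 21.0% in CD4+ libraries. Ifit1 averaged 38.3 ± 33.8 FPKM in γδ MCD, 26.9 ± 4.14 in γδ Ctl, 13.4 ± 2.57 in KO MCD, 7.25 ± 2.62 in KO Ctl, 10.7 ± 3.74 in WT MCD and 11 ± 4.55 FPKM in WT Ctl. In γδ MCD, Bst2 had 0 and 3.36 CPM, Rsad2 0 and 0.806 CPM, and Cmpk2 8.92 and 0 CPM.

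Isg15, a ubiquitin-like modifier, was at the bottom of the list, with 0.165 and 0.0672 CPM in γδ MCD, 1.78 and 1.46 CPM in γδ Ctl and 0.046 to 3.22 CPM in CD4+ libraries. Usp18, the protease that removes it, had 10.2 and 0.403 CPM in γδ MCD. Parp14, an ADP-ribosyl transferase, averaged 34.3 ± 8.51 FPKM in γδ MCD, 30.5 ± 5.92 in γδ Ctl, 21.9 ± 2.69 in KO MCD, 16.3 ± 2.96 in KO Ctl, 17.5 ± 1.07 in WT MCD and 21.6 ± 4.02 FPKM in WT Ctl. Dtx3l, a ubiquitin ligase that works in a complex with Parp9, averaged 39.4 ± 12.1 FPKM in γδ MCD, 23.4 ± 7.54 in γδ Ctl, 15.4 ± 5.13 in KO MCD, 20.0 ± 4.78 in KO Ctl, 13.9 ± 2.69 in WT MCD and 25.4 ± 9.02 FPKM in WT Ctl. Parp9 split the γδ MCD replicates, with 74.7 and 5.51 CPM.

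The GTPases are the guanylate-binding proteins Gbp2, Gbp3, Gbp5 and Gbp7 of chromosome 3 and Gbp4, Gbp6, Gbp8 and Gbp9 of chromosome 5, with the immunity-related GTPases Irgm1, Igtp and Iigp1. Igtp averaged 89.7 ± 0.905 FPKM in γδ MCD, 52.9 ± 13.5 in γδ Ctl, 34.8 ± 17.3 in KO MCD, 67.4 ± 4.45 in KO Ctl, 47.7 ± 3.71 in WT MCD and 64.3 ± 14.1 FPKM in WT Ctl. Gbp7 averaged 33.0 ± 15.6 FPKM in γδ MCD, 31.9 ± 5.98 in γδ Ctl, 33.5 ± 5.22 in KO MCD, 20.1 ± 3.80 in KO Ctl, 27.5 ± 4.78 in WT MCD and 30.1 ± 3.60 FPKM in WT Ctl. The chromosome 3 genes summed to 294 and 264 CPM in γδ MCD and 416 and 346 CPM in γδ Ctl, against 176 to 330 CPM in CD4+ libraries. The chromosome 5 genes summed to 160 and 289 CPM in γδ MCD and 303 and 326 CPM in γδ Ctl, against 276 to 572 CPM in CD4+ libraries. The clusters thus differed in order: γδ Ctl libraries were above all CD4+ libraries for chromosome 3 and within their range for chromosome 5.

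The remaining members are Ifi203 and Ifi204 of the Ifi200 family of DNA-binding proteins, Trim30a, which restrains inflammatory signalling, Xaf1, a promoter of apoptosis, Ifi44 and Ifi27l2a. Ifi203 averaged 63.4 ± 12.7 FPKM in γδ MCD, 49.0 ± 8.33 in γδ Ctl, 61.1 ± 4.10 in KO MCD, 39.7 ± 0.438 in KO Ctl, 62.1 ± 27.9 in WT MCD and 51.6 ± 6.51 FPKM in WT Ctl. Trim30a averaged 23.9 ± 2.72 FPKM in γδ MCD, 21.2 ± 4.19 in γδ Ctl, 25.1 ± 2.31 in KO MCD, 16.3 ± 1.40 in KO Ctl, 18.3 ± 3.73 in WT MCD and 30.9 ± 6.94 FPKM in WT Ctl. Xaf1 had 14.8 and 41.0 CPM in γδ MCD, which were its lowest and highest values of all libraries, and Ifi44 had 10.6 and 0.0672 CPM in γδ MCD and 0.0509 and 16.4 CPM in γδ Ctl.

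**Figure D2:**
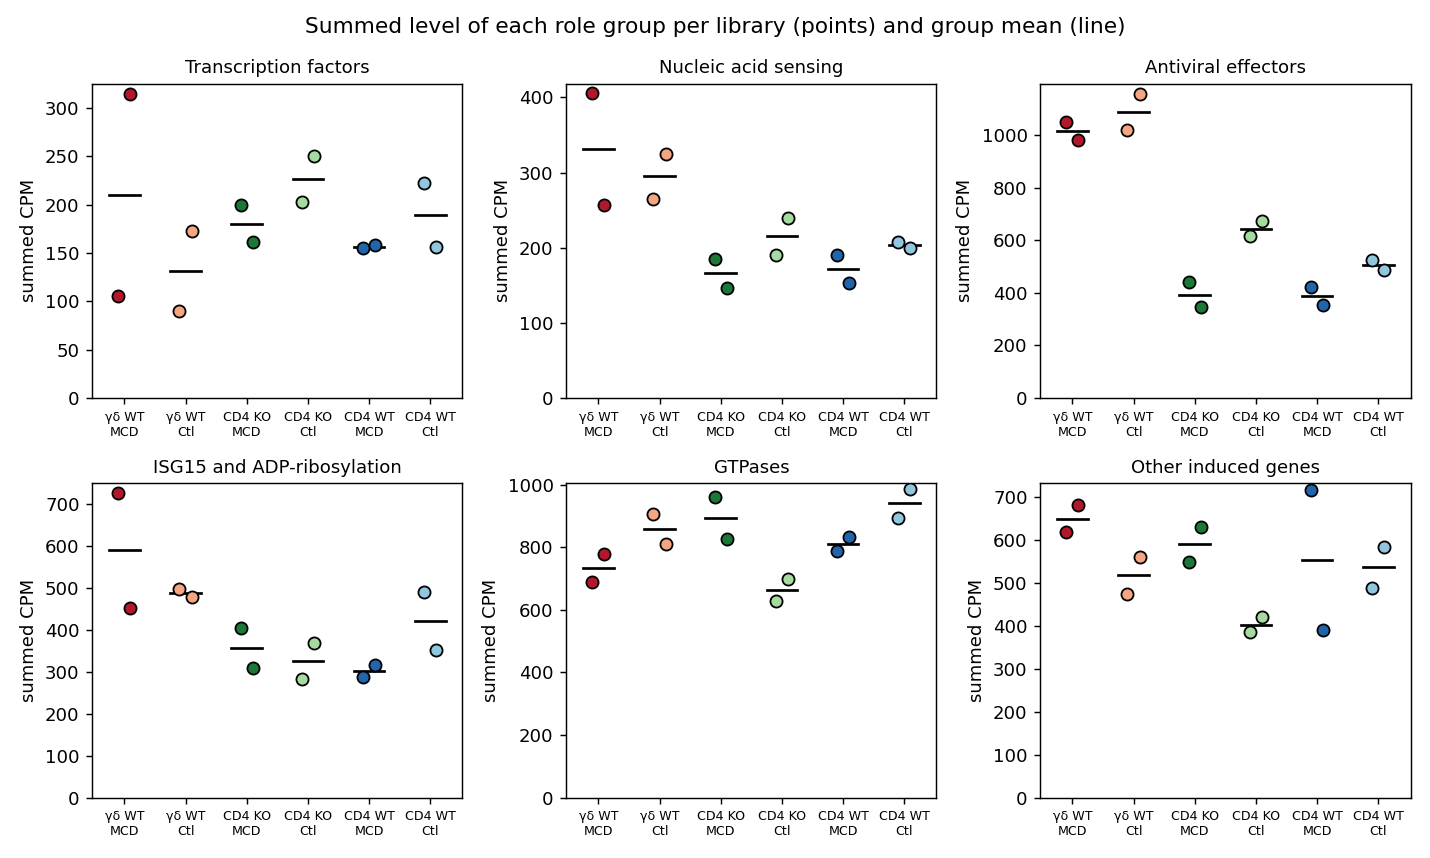
Summed CPM (TMM-scaled) of the members of each role group in every library, with points for libraries and a line for the mean of the 2 libraries of a group. The antiviral effectors sum to 984 to 1156 CPM in the γδ libraries and 346 to 673 CPM in the CD4+ libraries. Without Ly6e the sums are 121 to 241 CPM in γδ and 89.2 to 139 CPM in CD4+ libraries. The γδ MCD library at 121 CPM then lies within the CD4+ range, and the other γδ libraries stay above it. The GTPases of KO Ctl sit at 627 and 700 CPM, below KO MCD at 961 and 827 CPM.

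Replicates of γδ MCD differed most. In that group 23 of 44 members (52.3%) differed over 2-fold between the replicates, against 54.5% of all genes tested. The share was 36.4% of members in γδ Ctl, 27.3% in KO MCD, 43.2% in KO Ctl, 27.3% in WT MCD and 13.6% in WT Ctl, with 39.2% to 48.8% of all genes.

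The question of the cell types was answered in WT mice on each diet and over both. Ly6e had 826 and 863 CPM in γδ MCD and 825 and 915 CPM in γδ Ctl, against 295 and 261 CPM in WT CD4+ MCD and 402 and 361 CPM in WT CD4+ Ctl. All 4 γδ libraries were above all CD4+ libraries, KO included, which reached 533 CPM. Over both diets Ly6e (chr15:74955051-74959905, + strand) was higher in γδ T cells by a log2 fold change of 1.39 ± 0.16 (SE, adjusted p = 0.000241), with 1.60 ± 0.22 on the MCD diet (adjusted p = 0.00334) and 1.19 ± 0.22 on the Ctl diet (adjusted p = 0.0243). The sums of macrophage, monocyte and dendritic cell markers given above were also higher in γδ libraries, and their part in the Ly6e difference was not tested.

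Ifi204 (chr1:173747293-173766943, - strand) had 120 and 29.4 CPM in γδ MCD and 19.4 and 42.8 CPM in γδ Ctl, against 2.46 and 2.26 CPM in WT CD4+ MCD and 4.46 and 1.30 CPM in WT CD4+ Ctl. The groups did not overlap, although the γδ MCD replicates lay far apart. It was higher in γδ T cells over both diets by a log2 fold change of 4.16 ± 0.76 (adjusted p = 0.00602) and on the MCD diet by 4.92 ± 1.11 (adjusted p = 0.0345), while on the Ctl diet the value was 3.39 ± 1.04 (adjusted p = 0.224, and 0.00314 with DESeq2). The macrophage marker sum moved with it, at 1648 to 2282 CPM in γδ MCD against 16 to 20.0 CPM in WT CD4+ MCD, and its part in the difference was not tested.

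Gbp4 (chr5:105115767-105139586, - strand), a guanylate-binding protein, had 89.6 and 152 CPM in γδ MCD and 120 and 152 CPM in γδ Ctl, against 222 and 223 CPM in WT CD4+ MCD and 236 and 314 CPM in WT CD4+ Ctl. Every γδ library was below every CD4+ library of either genotype, the lowest of which had 162 CPM. It was lower in γδ T cells over both diets, by a log2 fold change of -0.95 ± 0.23 (adjusted p = 0.0285). On the separate diets its values were -0.88 ± 0.32 for MCD (adjusted p = 0.150) and -1.02 ± 0.32 for Ctl (adjusted p = 0.256).

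**Figure D3:**
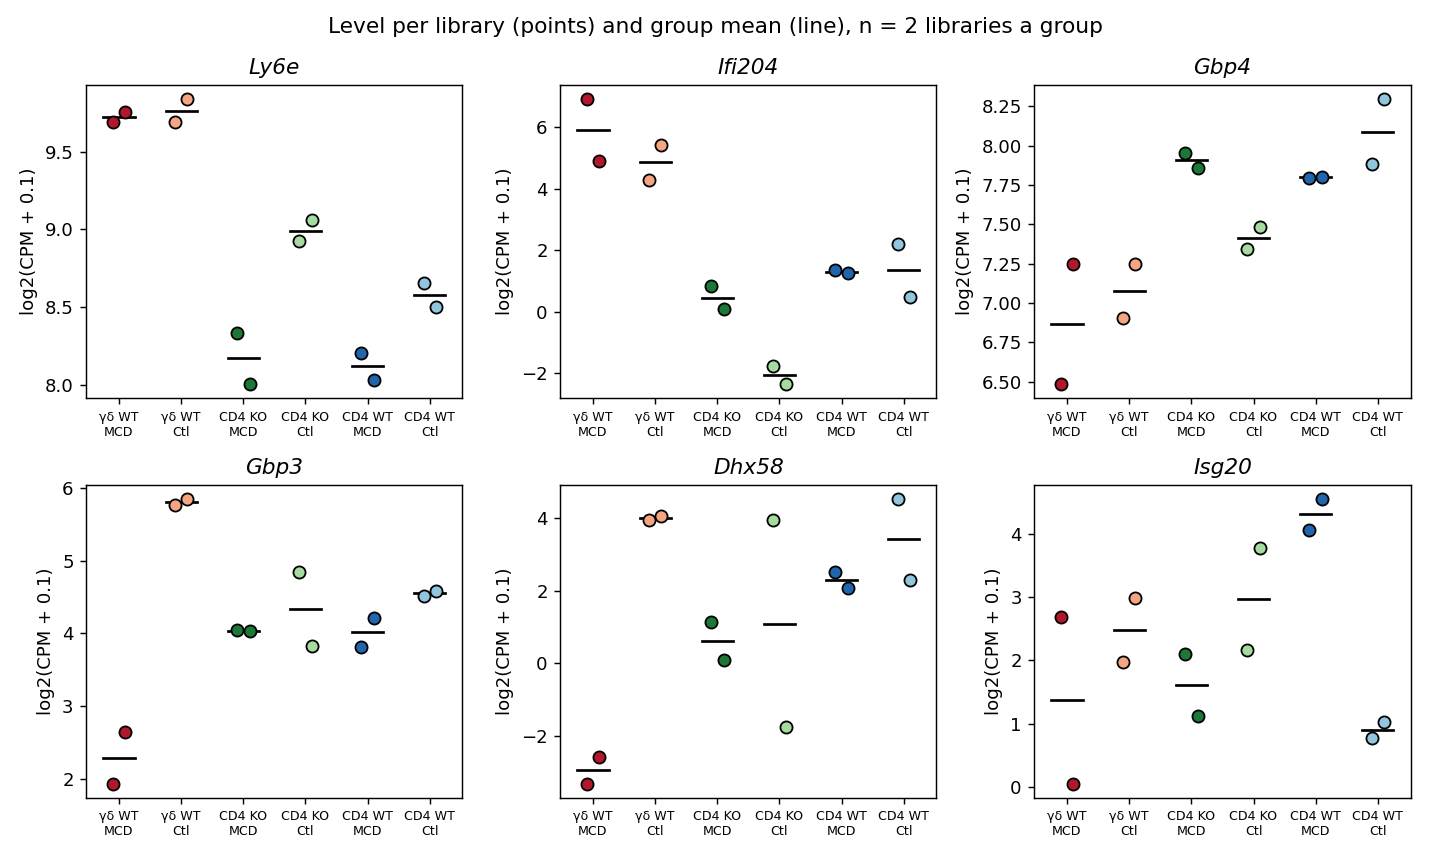
log2(CPM + 0.1) of 6 members in every library (points) with the group mean of the logs (lines), 2 libraries a group, on axes that do not start at 0. Ly6e and Ifi204 are higher and Gbp4 lower in the 4 γδ libraries than in all CD4+ libraries. Gbp3 and Dhx58 are low in γδ MCD, and Isg20 is highest in WT CD4+ MCD. Dhx58 is also low in KO Ctl replicate 2 (0.192 CPM) and in KO MCD (2.12 and 0.966 CPM).

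Of the 44 members, 2 were higher and 1 was lower over both diets, against 5.96% of all genes tested that passed in either direction. On the MCD diet 2 were higher and none was lower, against 2.65% of all genes, and on the Ctl diet 1 was higher and none was lower, against 0.654%. Over both diets, 3 members were higher without overlap between libraries, against 5.56% of all genes, and 1 was lower, against 8.86%. The same counts were 9 higher (14.5% of all genes) and 8 lower (32%) on the MCD diet, and 13 higher (20.1%) and 8 lower (25.8%) on the Ctl diet. The median log2 fold change of the members was 0.09 over both diets, against -0.23 for all genes, with 23 members above 0 and 21 below. Scaling by library size put the medians at -0.59 and -0.84, with 12 members above 0 and 32 below.

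The members next in order of p did not pass with edgeR, though some passed with other tools. Over both diets Parp14 had a log2 fold change of 0.70 ± 0.21 (adjusted p = 0.0666), with 370 and 267 CPM in γδ MCD and 264 and 341 CPM in γδ Ctl, against 180 and 161 CPM in WT CD4+ MCD and 243 and 183 CPM in WT CD4+ Ctl. Ifit1 had 1.53 ± 0.48 (adjusted p = 0.0729), with 163 and 38.8 CPM in γδ MCD and 68.6 and 83.6 CPM in γδ Ctl, against 37.6 and 22.1 CPM in WT CD4+ MCD and 21.9 and 39.5 CPM in WT CD4+ Ctl. Parp14 did not overlap between the cell types, and Ifit1 overlapped by 1 γδ MCD library. Parp14 passed with DESeq2 (adjusted p = 0.0220), limma-voom (0.0384) and a filter at a mean of 50 counts (0.0479), and Ifit1 with DESeq2 (0.00925) and no filter (0.0325). On the MCD diet Dtx3l had 271 and 179 CPM in γδ, against 72.7 and 93.2 CPM in CD4+ T cells (log2 fold change 1.44 ± 0.42, adjusted p = 0.0855). On the Ctl diet Gbp2 had 97.4 and 100 CPM in γδ, against 25.9 and 33.4 CPM in CD4+ T cells (1.73 ± 0.69, adjusted p = 0.403), and neither pair of groups overlapped. On the MCD diet Gbp3 had a log2 fold change of -1.70 ± 0.74, Gbp9 of -0.98 ± 0.44, Isg20 of -2.42 ± 1.33 and Parp14 of 0.90 ± 0.30 (adjusted p = 0.119 to 0.287). With DESeq2, Dtx3l (adjusted p = 0.0118), Gbp3 (0.0214) and Parp14 (0.0353) passed on that diet. Dhx58 had 1 count in γδ MCD against 204 counts in WT CD4+ MCD, but 15.5 and 16.6 CPM in γδ Ctl against 23.1 and 4.81 CPM in WT CD4+ Ctl, so that its value of -2.50 ± 1.34 over both diets (adjusted p = 0.130, and 0.0331 with DESeq2) rests on the MCD diet. Values below 0 were also found for these members: Gbp8 with a log2 fold change of -0.99 ± 0.57 and Gbp9 with -0.45 ± 0.31 over both diets, and on the Ctl diet Stat2 with -1.17 ± 0.79, Zbp1 with -0.94 ± 0.60 and Oas2 with -2.48 ± 1.45 (adjusted p = 0.291 to 0.571). Gbp8 had 4.46 and 62.1 CPM in γδ MCD and 33.2 and 36.2 CPM in γδ Ctl, against 63.5 and 63.9 CPM in WT CD4+ MCD and 59.2 and 85.3 CPM in WT CD4+ Ctl.

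Calls between the cell types depended on the scaling and on single libraries. Ly6e over both diets passed under all 22 alternatives, with an adjusted p of at most 0.0134, and its log2 fold change was 0.71 under library-size scaling. On single diets that scaling ended the Ly6e calls (Ctl 0.61, adjusted p = 0.266; MCD 0.81, adjusted p = 0.0534) and the Ifi204 call on MCD (adjusted p = 0.0553). Leaving out a library ended calls as follows. Ly6e on Ctl was lost without γδ Ctl replicate 6 (adjusted p = 0.0961) or 7 (0.210) and without WT CD4+ Ctl replicate 2 (0.224) or 3 (0.394), and Ly6e on MCD without WT CD4+ MCD replicate 3 (0.0634). Ifi204 on MCD was lost without γδ MCD replicate 2 (0.0819), WT CD4+ MCD replicate 1 (0.212) or 3 (0.224), or KO MCD replicate 1 (0.0522) or 2 (0.0516). Ifi204 over both diets was lost without WT CD4+ MCD replicate 1 (0.0529) or 3 (0.0544) or WT CD4+ Ctl replicate 3 (0.0530). Gbp4 was lost without γδ Ctl replicate 6 (0.0880) or 7 (0.0587), WT CD4+ MCD replicate 1 (0.0909) or 3 (0.0948), or WT CD4+ Ctl replicate 2 (0.0633) or 3 (0.134). Fitted with only the groups compared, the calls of Ly6e on MCD (0.132), Ifi204 on MCD (0.207) and Gbp4 (0.0781) were lost, and limma-voom lost Ifi204 on MCD (0.0612). Without γδ MCD replicate 4, the count of called members was 9 over both diets and 9 on the MCD diet, while 2548 and 2095 of all genes were called, against 966 and 430 with that library.

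The MCD diet was compared with the Ctl diet in γδ T cells. Gbp3, a guanylate-binding protein, had 3.71 and 6.11 CPM in γδ MCD, against 54.6 and 57.7 CPM in γδ Ctl. The groups did not overlap, but the log2 fold change of -3.49 ± 0.79 did not pass (adjusted p = 0.0912). Dhx58, the regulator of RNA sensing known as LGP2, had 0 and 1 counts in γδ MCD, against 15.5 and 16.6 CPM (611 counts in all) in γδ Ctl. The ratio of γδ Ctl over γδ MCD was 433, with an exact 95% interval of 77.4 to 17116 that covers counting error only, and the test gave an adjusted p of 0.121. Dhx58 passed with DESeq2 (adjusted p = 0.000576) and with no filter (0.0157). Low values of Dhx58 were not limited to γδ MCD. It had 15.5 and 0.192 CPM in KO Ctl, far apart between replicates, and 2.12 and 0.966 CPM in KO MCD. Ifit2 had 10.2 and 16.5 CPM in γδ MCD, against 70.2 and 33.3 CPM in γδ Ctl (log2 fold change -1.95 ± 0.78, adjusted p = 0.227). Gbp9 had 37.6 and 58.6 CPM in γδ MCD, against 124 and 104 CPM in γδ Ctl (-1.24 ± 0.44, adjusted p = 0.200). All these members were separated by diet, and Rsad2, at 0 and 0.806 CPM in γδ MCD against 10.7 and 20.5 CPM in γδ Ctl, was too.

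Other members had higher values on the MCD diet without passing. Ifih1 had 104 and 92.6 CPM in γδ MCD, against 41.6 and 60.0 CPM in γδ Ctl (log2 fold change 0.95 ± 0.55, adjusted p = 0.370). Zbp1 had 41.1 and 118 CPM in γδ MCD, against 29.5 and 40.6 CPM in γδ Ctl (1.18 ± 0.60, adjusted p = 0.318). Igtp had 178 and 185 CPM in γδ MCD, against 136 and 92.4 CPM in γδ Ctl (0.67 ± 0.40, adjusted p = 0.377). Dtx3l, at 271 and 179 CPM in γδ MCD against 177 and 109 CPM in γδ Ctl, had 0.65 ± 0.42 (adjusted p = 0.409). Zbp1 and Dtx3l were split only by a small margin.

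In γδ T cells no member passed for diet with edgeR, nor did any other gene (0% of all genes). At an unadjusted threshold of 0.05, 5 members passed, all lower, against 17.5% of all genes, and DESeq2 called 3 members and 2105 of all genes. Members without overlap numbered 7 higher, against 11.1% of all genes, and 10 lower, against 22.1%. The median of the members was -0.05 and that of all genes -0.06, with 21 members above 0 and 23 below. By role, all 4 transcription factors and 5 of 6 remaining induced genes were above 0, and 9 of 11 GTPases and 8 of 10 antiviral effectors were below, with no test of these counts. Library-size scaling put 3 of the 6 remaining genes above 0, and with DESeq2-type (RLE) scaling 7 of 11 GTPases and 7 of 10 effectors were below. Gbp3 passed with DESeq2, with either FPKM setting, with no filter and without γδ MCD replicate 4 (adjusted p = 2.52e-07 to 0.0419). Endothelial markers moved with the diet too, at 128 to 147 CPM in γδ MCD against 698 to 1384 CPM in γδ Ctl, and their part was not tested.

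In CD4+ T cells the largest difference by value on the MCD diet was that of Isg20 in WT mice. It had 16.6 and 23.3 CPM in WT MCD, against 1.61 and 1.95 CPM in WT Ctl (log2 fold change 3.41 ± 1.39, adjusted p = 1). In KO mice the same gene had 4.19 and 2.07 CPM in KO MCD, against 4.39 and 13.7 CPM in KO Ctl. Neither pair overlapped, though KO was split only by a small margin (4.19 against 4.39 CPM). The values ran in opposite directions. Ly6e was lower by value on the MCD diet in both genotypes, with 322 and 257 CPM in KO MCD against 485 and 533 CPM in KO Ctl, and 295 and 261 CPM in WT MCD against 402 and 361 CPM in WT Ctl. Its log2 fold change was -0.81 ± 0.22 in KO (adjusted p = 0.392), -0.46 ± 0.22 in WT (adjusted p = 1) and -0.64 ± 0.15 over both genotypes (adjusted p = 0.309). All 4 MCD libraries were below all 4 Ctl libraries, but the test did not pass. In KO the B cell marker sum moved with Ly6e, at 245 and 274 CPM in KO MCD against 530 and 656 CPM in KO Ctl, while in WT it was 313 and 221 CPM in MCD against 287 and 357 CPM in Ctl, and its part was not tested.

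Rtp4 and Igtp had the same order over both genotypes. Rtp4, an induced chaperone of membrane receptors, had 10.1 and 6.30 CPM in KO MCD against 17.5 and 54.9 CPM in KO Ctl, and 9.58 and 6.65 CPM in WT MCD against 23.3 and 22.8 CPM in WT Ctl (log2 fold change over both -1.81 ± 0.76, adjusted p = 0.781). Igtp had 101 and 48.7 CPM in KO MCD against 140 and 153 CPM in KO Ctl, and 96.6 and 105 CPM in WT MCD against 160 and 115 CPM in WT Ctl (-0.71 ± 0.28, adjusted p = 0.781). Oas2 had 1.52 and 3.36 CPM in KO MCD against 7.95 and 26.2 CPM in KO Ctl, and 7.03 and 3.46 CPM in WT MCD against 24.8 and 9.28 CPM in WT Ctl (-2.22 ± 1.02, adjusted p = 0.815). With Ly6e, Oas1a and Usp18, these were the 6 members whose MCD libraries all lay below the Ctl libraries, against 2.24% of all genes, while 0 lay above, against 2.54%.

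In KO mice 7 of 8 guanylate-binding proteins had log2 fold changes above 0 on the MCD diet, with Gbp3 below 0, and none passed. Gbp6 had 49.7 and 25.4 CPM in KO MCD, against 18.2 and 9.42 CPM in KO Ctl (log2 fold change 1.44 ± 0.70), and Gbp7 had 222 and 179 CPM, against 105 and 137 CPM (0.73 ± 0.36, adjusted p = 0.787 for both). The chromosome 3 genes summed to 330 and 255 CPM in KO MCD, against 176 and 199 CPM in KO Ctl, and the chromosome 5 genes to 485 and 487 CPM, against 276 and 316 CPM. In WT mice the chromosome 3 sums were 268 and 251 CPM in MCD, against 272 and 240 CPM in Ctl, and the chromosome 5 sums 382 and 432 CPM, against 419 and 572 CPM. The KO sums did not overlap between diets, and the WT sums did. Of 11 GTPases, 9 were above 0 in KO and 3 in WT, under each of 4 scalings, against 51.0% and 49.7% of all genes, with no test of these counts.

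Other members of KO mice were named by the same rule. Mx1 had 13.2 and 6.99 CPM in KO MCD, against 0.488 and 3.22 CPM in KO Ctl (log2 fold change 2.38 ± 1.20). Ifih1 had 65.9 and 55.2 CPM in KO MCD, against 40.1 and 15.3 CPM in KO Ctl (1.12 ± 0.56). Irf7 had 1.57 and 6.90 CPM in KO MCD, against 10.1 and 38.1 CPM in KO Ctl (-2.48 ± 1.18, adjusted p = 0.787 for all 3 members). In WT mice Trim30a had 91.2 and 66.5 CPM in MCD, against 114 and 154 CPM in Ctl (-0.76 ± 0.37), and Dtx3l had 72.7 and 93.2 CPM, against 194 and 114 CPM (-0.89 ± 0.42, adjusted p = 1 for both). These groups did not overlap. Ifi203, Ifih1 and Gbp2 overlapped between the diets of WT, with log2 fold changes of 0.26 ± 0.31, 0.31 ± 0.55 and 0.76 ± 0.68. Over both genotypes Ifi203 had 0.43 ± 0.22, Ifih1 0.72 ± 0.39, Gbp2 0.63 ± 0.48 and Gbp5 0.80 ± 0.50.

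No member passed for diet in CD4+ T cells with edgeR, where 0% of all genes passed in WT, 0.037% in KO and 0.037% over both genotypes. DESeq2 also called 0 members, with 40 genes in all in WT, 266 in KO and 196 over both genotypes. With edgeR at the unadjusted threshold, 1 member passed in WT (2.13% of all genes), 3 in KO (6.06%) and 5 over both (6.08%). Without overlap, 2 members were higher (16.7% of all genes) and 15 lower (17.2%) in WT, and 17 were higher (20.8%) and 10 lower (18.1%) in KO. The median log2 fold change was -0.29 in WT, against 0 for all genes, with 12 members above 0 and 32 below. In KO it was 0.02, against 0.03 for all genes, with 22 above and 22 below. Under library-size scaling these medians were -0.31 in WT and 0.32 in KO, where all genes had 0.32.

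Knockout was compared with wild type in CD4+ T cells on each diet. On the Ctl diet Mx1 had 0.488 and 3.22 CPM in KO, against 26 and 13.7 CPM in WT (log2 fold change -3.35 ± 1.25). Trim30a had 67.5 and 75.9 CPM in KO, against 114 and 154 CPM in WT (-0.90 ± 0.37). Gbp6 had 18.2 and 9.42 CPM in KO, against 32.2 and 48.4 CPM in WT (-1.54 ± 0.70), and Gbp4 had 162 and 179 CPM, against 236 and 314 CPM (-0.69 ± 0.32). Ly6e had 485 and 533 CPM in KO, against 402 and 361 CPM in WT (0.42 ± 0.22). No pair overlapped, and adjusted p was 1 for all 5 members. Irf9 had 49.0 and 117 CPM in KO, against 44.9 and 42.9 CPM in WT (0.92 ± 0.72), Ifit2 57.6 and 23.6 CPM, against 27.1 and 14.5 CPM (0.96 ± 0.76), and Isg20 had 2.28 ± 1.33. Ifi204, under the 5 CPM needed for naming, had the lowest adjusted p of the members here. Its values were 0.195 and 0.0962 CPM in KO, near the floor of 3 counts, against 4.46 and 1.30 CPM in WT. The log2 fold change was -3.59 ± 1.15 (adjusted p = 0.762 with edgeR). This comparison shares the KO Ctl libraries with the diet comparison of KO, so their values are not independent.

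On the MCD diet the genotypes were closer by value. Isg20 had 4.19 and 2.07 CPM in KO, against 16.6 and 23.3 CPM in WT (log2 fold change -2.63 ± 1.34), and Irf1 had 71.3 and 55.3 CPM, against 36.6 and 40.3 CPM (0.72 ± 0.63). Trim30a had 103 and 117 CPM in KO, against 91.2 and 66.5 CPM in WT (0.48 ± 0.37), and Parp14 had 235 and 199 CPM, against 180 and 161 CPM (0.35 ± 0.30). These 4 members were separated by genotype. Oas2, Irf7, Igtp and Gbp9 had log2 fold changes of -1.07 ± 1.40, -1.28 ± 1.14, -0.43 ± 0.40 and 0.52 ± 0.43, and adjusted p was 1 for all 8 members. Over both diets Mx1 had -1.92 ± 0.83, Dhx58 -1.21 ± 1.12, Oasl2 -0.77 ± 0.72, Oas1a 0.63 ± 1.08, Ifit2 0.70 ± 0.53, Irf1 0.37 ± 0.45, Gbp4 -0.29 ± 0.23 and Ly6e 0.24 ± 0.15, all with overlap between genotypes.

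No member passed for genotype with edgeR, where 0.0247% of all genes passed on Ctl, 0% on MCD and 0.00617% over both diets. DESeq2 called 1 member on Ctl (122 genes in all), 0 on MCD (39 genes) and 1 over both (76 genes). Neither call was of a member named by the rule on smallest p in its comparison. With edgeR at the unadjusted threshold, 4 members passed on Ctl, all lower (4.03% of all genes), 0 on MCD (2.08%) and 2 over both, also lower (4.42%). Without overlap, 6 members were higher (16.7% of all genes) and 14 lower (20.6%) on Ctl, 6 higher (15.9%) and 6 lower (17%) on MCD, and 0 higher (1.12%) and 0 lower (2%) over both diets. The median was -0.31 on Ctl, against -0.03 for all genes, with 28 members below 0, and 0.01 on MCD, against 0 for all genes, with 20 below. Library-size scaling moved the median of all genes on Ctl to -0.38 and that of the members to -0.67.

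Whether the diet difference itself differed was tested as an interaction. Between KO and WT CD4+ T cells, Isg20 had a log2 difference of -4.91 ± 1.89 and Trim30a of 1.38 ± 0.52, and neither passed (adjusted p = 1 for both). No member passed, and no other gene did (0%), with 3 members at the unadjusted threshold against 4.33% of all genes. DESeq2 called 0 members and 71 genes in all. Other members named here had values of 2.87 ± 1.64 for Mx1, 2.07 ± 0.98 for Gbp6, 0.80 ± 0.45 for Gbp4, -2.37 ± 1.61 for Irf7, -1.34 ± 1.02 for Irf9 and -2.45 ± 1.84 for Ifi27l2a. Between γδ and CD4+ T cells of WT mice, Gbp3 had -2.97 ± 1.03 (adjusted p = 0.400), Dhx58 -5.39 ± 2.69, Dtx3l 1.54 ± 0.59 and Isg20 -4.08 ± 1.86 (adjusted p = 0.418 to 0.458). No member passed there either (0% of all genes), 4 passed at the unadjusted threshold against 10.6% of all genes, and DESeq2 called 1 member, Gbp3, among 645 genes. Rsad2, Oas2, Zbp1 and Igtp had -5.11 ± 2.68, 3.70 ± 2.01, 1.56 ± 0.85 and 1.12 ± 0.56.

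**Figure D4:**
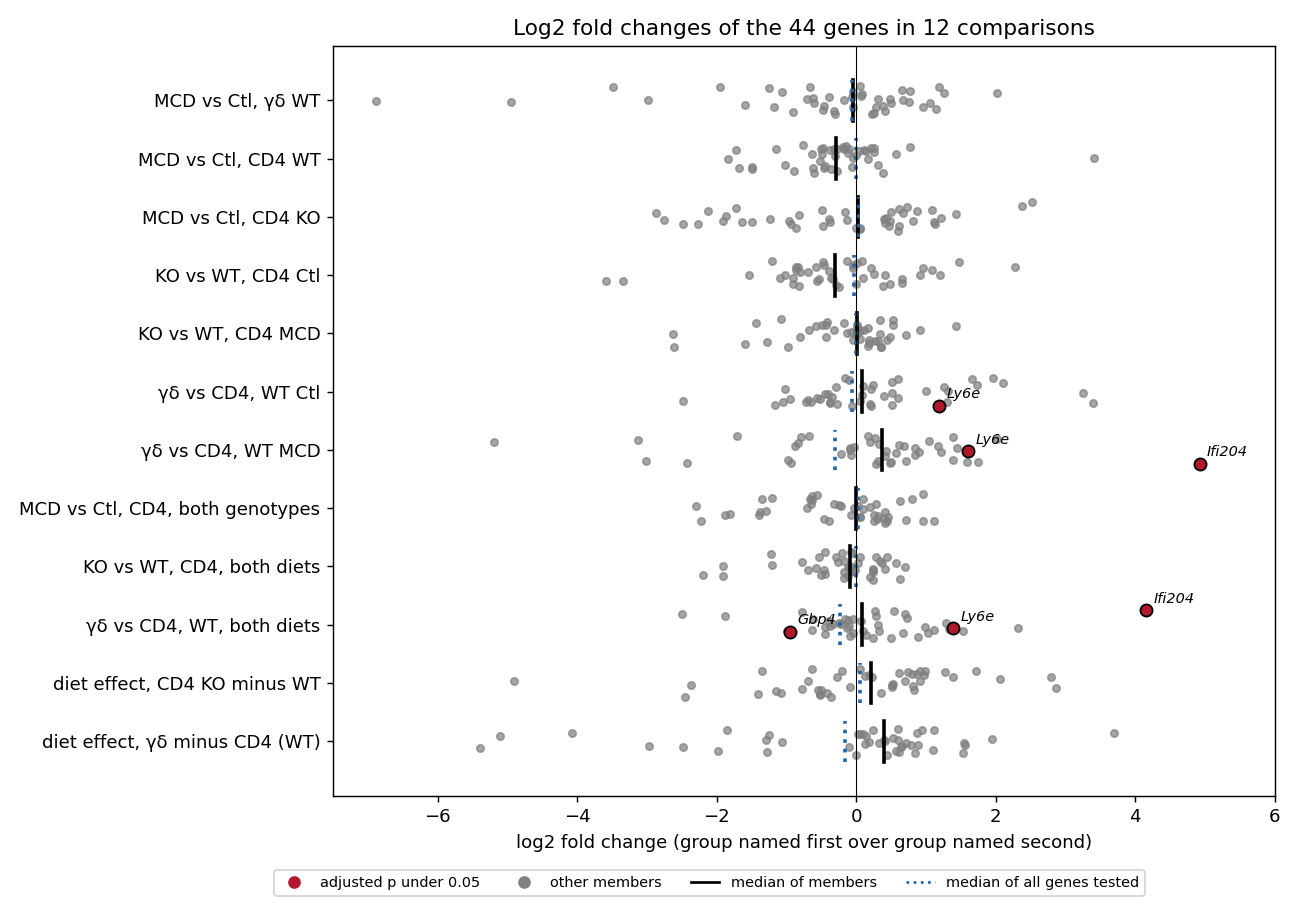
Log2 fold change of each of the 44 genes (points) in 12 comparisons, with members at an adjusted p under 0.05 in red and named, the median of the members as a solid bar and that of all genes tested as a dotted bar. Red points appear in the rows of γδ against CD4+ T cells, and the medians of the members lie between -0.31 and 0.40.

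Genes upstream of the members and further induced genes were read from separate lists, whose counts over both diets stand against 5.96% of all genes called between the cell types. Of 13 ligands, 4 could be tested and none passed in any comparison. Ifng, which encodes interferon γ, had 58.2 and 32.6 CPM in γδ MCD and 12.8 and 6.44 CPM in γδ Ctl, against 7.61 to 55.2 CPM in CD4+ libraries. Ifnb1 and Ifna1 had 0 counts in all 12 libraries. Of 11 receptors and kinases tested, 1 rose in γδ T cells over both diets: Ifngr1, a chain of the interferon γ receptor, had 375 and 551 CPM in γδ MCD and 274 and 414 CPM in γδ Ctl, against 159 and 212 CPM in WT CD4+ MCD and 110 and 137 CPM in WT CD4+ Ctl (log2 fold change 1.40 ± 0.22, adjusted p = 0.00301). The macrophage marker sum moved with it (941 to 2282 CPM in γδ and 16 to 59.9 CPM in WT CD4+ libraries), and its part was not tested. Jak1, the most abundant kinase of the list, had 798 to 885 CPM in γδ and 558 to 1067 CPM in CD4+ libraries. Of 10 genes listed as inhibitors, 1 was lower in γδ T cells: Uba7, which is the activating enzyme for Isg15 rather than an inhibitor, had 4.29 and 1.88 CPM in γδ MCD and 12.9 and 9.10 CPM in γδ Ctl, against 24.9 to 77.4 CPM in WT CD4+ libraries (-3.12 ± 0.54, adjusted p = 0.00431). The most abundant genes of that list, Pias1 and Irf2, which dampen interferon signalling, had 87.4 to 323 and 26.3 to 159 CPM in γδ libraries, against 86.9 to 167 and 48.7 to 157 CPM in CD4+ libraries.

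Of 14 sensors and adaptors, 3 toll-like receptors of the endosome were higher in γδ T cells over both diets. Tlr7 had 51.1 to 80.6 CPM in γδ libraries, against 2.54 to 6.73 CPM in WT CD4+ libraries (4.12 ± 0.71, adjusted p = 0.00430), while Tlr3 had 6.18 to 42.3 CPM against 0 to 0.0462 CPM (adjusted p = 0.00700) and Tlr9 11.1 to 25.7 CPM against 0 to 0.173 CPM (adjusted p = 0.0152). Macrophage, monocyte and dendritic cells express such receptors too, and the sums of their markers given above were higher in the same libraries, whose part was not tested. The most abundant genes of the list, the RNA sensor Ddx58 (RIG-I) and the kinase Tbk1, had 69.7 to 197 and 59.5 to 127 CPM in γδ libraries, against 68.3 to 137 and 16.8 to 83.7 CPM in CD4+ libraries. Of 12 genes of antigen presentation, B2m, the light chain of MHC class I, was higher in γδ T cells, with 3674 and 4264 CPM in γδ MCD and 5021 and 5886 CPM in γδ Ctl, against 2297 and 1708 CPM in WT CD4+ MCD and 2241 and 2287 CPM in WT CD4+ Ctl (1.13 ± 0.12, adjusted p = 0.000184). H2-K1, a heavy chain, had 874 to 1445 CPM in γδ and 1217 to 1525 CPM in CD4+ libraries.

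Of 44 further induced genes tested, 6 were higher and 3 were lower in γδ T cells over both diets, and 1, the chemokine Ccl5, was higher on the MCD diet in CD4+ T cells. Ccl5 had 128 and 166 CPM in KO MCD against 25.5 and 31.9 CPM in KO Ctl (log2 fold change 2.35 ± 0.35, adjusted p = 0.0356), and 67.3 and 68.7 CPM in WT MCD against 27.6 and 31.4 CPM in WT Ctl, with 1.78 ± 0.24 over both genotypes (adjusted p = 0.0161). The NK cell marker sum moved with it in KO, at 102 and 47.6 CPM in KO MCD against 11.8 and 15 CPM in KO Ctl, while in WT it was 106 and 57.2 CPM in MCD against 93.3 and 120 CPM in Ctl, and its part was not tested. In γδ T cells Ccl5 had 201 to 327 CPM. Ifitm3, which blocks viral entry, had 67.0 to 132 CPM in γδ libraries, against 0.347 to 3.27 CPM in WT CD4+ libraries (6.10 ± 0.86, adjusted p = 0.00117). Cxcl9, a chemokine that macrophages and endothelium also make, had 136 and 3.63 CPM in γδ MCD and 172 and 361 CPM in γδ Ctl, against 0.416 to 2.21 CPM in WT CD4+ libraries (adjusted p = 0.00309). Ifitm2, Phf11d and Slfn5 were higher as well (adjusted p = 0.0231, 0.0300 and 0.0453). Slfn1 was lower, with 15.7 to 45.1 CPM in γδ libraries against 73.9 to 111 CPM in WT CD4+ libraries (-1.85 ± 0.34, adjusted p = 0.00602), as were Oas1b (adjusted p = 0.0223) and Gbp11 (adjusted p = 0.0458). The macrophage and monocyte marker sums were higher in the γδ libraries than in CD4+ libraries beside all these genes, and their part was not tested. The most abundant of this list, Samhd1 and Sp100, had 476 to 842 and 372 to 1112 CPM in γδ libraries, against 447 to 625 and 425 to 536 CPM in CD4+ libraries.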

How the data were processed

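RNA was measured by Illumina sequencing. Per the submitters' processing notes, bcl2fastq, STAR, featureCounts and DESeq2 were used on mm10 (GRCm38), with no versions given. The authors deposited raw counts per gene and FPKM values, which the values show to be counts scaled by size factors and by length. Counts were tested, and FPKM served for levels between genes and as an alternative. A single edgeR 4.0.16 model (R 4.3.3) held the 12 libraries, each of the 6 groups having its own coefficient: filterByExpr (minimum count 10, total 15), TMM, quasi-likelihood test, 2-sided, prior count of 2, Benjamini-Hochberg adjustment over 16218 genes, threshold 0.05. CPM values were TMM-scaled, and "without overlap" compares them between all libraries of both groups. Averages weight groups equally. Alternatives used limma 3.58.1, DESeq2 1.42.0, other scalings and filters, and fewer libraries. The code was tested on simulated data. Members and lists were chosen with earlier results of these data known. Named per comparison were members past the threshold and up to 4 a direction with the smallest p, provided that the group with more averaged 5 CPM or above; of the other lists, genes past the threshold and the 2 most abundant. Dhx58 ratios used exact intervals. Positions and shared 31-mers came from GENCODE vM21, promoters from RefSeq. Intervals and floors cover counting error only.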

Additional observations from a re-analysis of the deposited data

How the results depend on the processing

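With 2 libraries a group, single libraries and the tool moved many counts, given here with the number of all genes called under the same setting in brackets. The number of called members in γδ T cells by diet, 0 in the fit reported, was 2 with no filter (555), 1 with log2(FPKM + 1) (148) and with log2(FPKM + 0.1) (210), 3 with DESeq2 (2105) and 0 to 3 when single libraries were left out (0 to 1342). For KO against WT on Ctl (122) and over both diets (76) DESeq2 called 1, and for diet by cell type DESeq2 called 1 (645) and left-out libraries gave 0 to 1 (0 to 455). For γδ against CD4+ on Ctl, 1 as reported (106), library-size scaling gave 0 (113), while DESeq2 (917), the groups compared alone (231) and the fit without both γδ MCD libraries (285), an alternative chosen after seeing the data, gave 2, and left-out libraries 0 to 2 (27 to 305). On MCD, 2 as reported (430), no filter gave 4 (1071), limma-voom 1 (787), DESeq2 7 (2887), the groups compared alone 0 (62) and left-out libraries 0 to 9 (47 to 2095). Over both diets, 3 as reported (966), library-size scaling gave 5 (1981), DESeq2 6 (3069) and left-out libraries 1 to 9 (311 to 2548).

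The medians of the members under library-size scaling were -0.22 for γδ diet, 0.32 for KO diet, -0.67 for KO against WT on Ctl and -0.31 over both diets, -0.47, -0.43 and -0.59 for γδ against CD4+ on Ctl, on MCD and over both, and 0.51 and 0.17 for the interactions by genotype and by cell type. Limma-voom gave -0.24 for γδ diet, 0.13 for γδ against CD4+ on MCD, and 0.51 and 0.075 for the interactions. With log2(FPKM + 1) the medians were 0.17 for γδ against CD4+ on MCD and 0.17 for the interaction by cell type, and with log2(FPKM + 0.1) they were 0.18 and 0.16 there, -0.24 for γδ diet and 0.42 for the genotype interaction. When single libraries were left out, the medians ran from -0.37 to -0.13 (WT diet), -0.13 to 0.27 (KO diet), -0.21 to 0.062 (CD4+ diet), -0.35 to -0.14 and -0.21 to 0.15 (genotype on Ctl and MCD), 0.025 to 0.25, 0.0091 to 0.50 and -0.058 to 0.25 (γδ against CD4+ on Ctl, MCD and both), and 0.10 to 0.49 and 0.17 to 0.61 (interactions).

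Members without overlap under library-size scaling were 2 higher (8.57% of all genes under that scaling) for γδ diet, 2 higher (9.24%) and 24 lower (30.8%) for KO against WT on Ctl, 3 higher (14.5%) on MCD, 20 lower (39%) for γδ against CD4+ on Ctl, 3 higher (7.4%) and 14 lower (44.8%) on MCD and 4 lower (17.1%) over both. Leaving out a library of a pair leaves 1, so these counts grow by construction: to 9 to 15 higher and 12 to 20 lower for γδ diet, 4 to 12 and 21 to 24 for WT diet, 19 to 22 and 13 to 17 for KO diet, 9 to 13 and 18 to 24 for genotype on Ctl, 11 to 17 and 8 to 18 on MCD, 16 to 20 and 13 to 16 for γδ against CD4+ on Ctl, 12 to 20 and 10 to 17 on MCD, 0 to 2 and 6 to 7 for CD4+ diet, 0 to 1 and 0 to 3 for CD4+ genotype, and 3 to 7 and 1 to 3 for γδ against CD4+ over both.

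Of the named log2 fold changes, 4 changed sign, all when a library was left out: Ifi203 (-0.32 to 0.67), Gbp2 (-0.44 to 1.41) and Ifih1 (-0.12 to 0.65) for WT diet, and Igtp (-1.05 to 0.0055) for KO against WT on MCD. Of all named values under all alternatives, 2123 kept direction and side of the threshold, 26 lost the threshold and 31 gained it. Most named values did not pass in the fit reported, so most of those kept were not calls. All 26 losses were of calls of Ly6e, Ifi204 and Gbp4 between γδ and CD4+ T cells. The cause was not tested except where stated. KO replicates are numbered 1 and 2 on both diets, and whether equal numbers mark a pairing is not stated. Their deviations correlated at -0.0059 over 16218 genes, a value that cannot show whether libraries were handled together. With this replicate block, fitted on the KO libraries only, 0 members and 202 genes in all were called for KO diet. The 6 genes called without it came from the fit of all 12 libraries, so the block and the set of libraries changed together.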

Other observations

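Neighbours of 2 members were looked at after their values were seen, and are given as values. Ifi207, of the same family as Ifi204, had 254 and 211 CPM in γδ MCD and 53.2 and 134 CPM in γδ Ctl, against 0 to 16.8 CPM in CD4+ libraries (log2 fold change over both diets 5.04, adjusted p = 0.0177 with edgeR). Ifi206 and Ifi208 had 55.4 to 104 and 77.1 to 127 CPM in γδ libraries, against 55.0 to 103 and 45.7 to 115 CPM in CD4+ libraries (adjusted p = 0.849 and 0.934). Ifi205 had 0.605 to 26.3 CPM in γδ and 0 to 0.393 CPM in CD4+ libraries (adjusted p = 0.0679). Mndal had 120 to 242 CPM in γδ and 149 to 399 CPM in CD4+ libraries (log2 fold change -0.81, adjusted p = 0.0564). Aim2, a DNA sensor near them, had 70.2 and 61.6 CPM in KO MCD against 10.8 and 12 CPM in KO Ctl, while WT CD4+ libraries had 51.7 to 72.2 CPM on either diet.

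Beside Ifitm2 and Ifitm3, Ifitm6 had 5.61 to 29.8 CPM in γδ libraries, against 0 to 0.046 CPM in WT CD4+ libraries (log2 fold change over both diets 7.22, adjusted p = 0.00535 with edgeR), and Ifitm1 had at most 1.57 CPM in any library. Beside Ly6e, Ly6a had 20.6 to 109 CPM in γδ and 54.9 to 104 CPM in CD4+ libraries (adjusted p = 0.802). Ly6c2 had 22.6 to 63.9 CPM in γδ and 1.61 to 16.5 CPM in CD4+ libraries (adjusted p = 0.0925). Ly6c1 ran the other way by value, with 0.0825 to 4.71 CPM in γδ and 2.12 to 20.8 CPM in CD4+ libraries. Its log2 fold change over both diets was -3.04 (adjusted p = 0.0666 with edgeR). Ly6d had at most 0.293 CPM in any library.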
